A study of Mus musculus with 6 samples.

Results

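The nuclear receptors Pparg and Ppard were followed with 8 genes that take up, bind, activate, store, burn, make or desaturate fatty acids. The cells were sorted from bone marrow cultures of mice with and without a Swedish-mutant human APP transgene. They were labelled as osteoblast (OB)-lineage, a label that their most abundant markers did not match. The 10 genes (Pparg, Ppard, Cd36, Fabp4, Fabp5, Acsl1, Plin2, Cpt1a, Fasn and Scd2) were chosen by name as a functional group, with earlier results of these data known, and are 10 of 17469 genes in the count table. PPARs are receptors that bind fatty acids and their derivatives, pair with retinoid X receptors (RXRs) and switch on genes of lipid uptake, storage and oxidation. PPARγ is known in bone marrow as a driver of fat-cell formation at the expense of OB formation, and in macrophages as a receptor that controls lipid uptake. PPARδ is more broadly expressed and is tied to fatty acid oxidation.

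The libraries came from bone marrow stromal cells (BMSCs) of 6-month-old mice, which were cultured, passaged and sorted by flow cytometry for the red reporter tdTomato. Control mice carried OCN-Cre, in which the osteocalcin promoter drives Cre recombinase, together with Ai9, a tdTomato reporter behind a loxP-flanked stop. TgAPPsweOCN;Ai9 mice carried OCN-Cre and Ai9 as well, plus a TgAPPswe transgene whose human APPswe is released from a stop by Cre. Both genotypes thus shared OCN-Cre and Ai9, no sample was treated, and each genotype had 3 libraries. The labels do not say whether the libraries of a genotype came from separate mice or cultures, so p-values measure the spread between these libraries, which may be technical. Libraries held 19340791 to 19801073 estimated counts in control and 21677455 to 22037830 in TgAPPsweOCN;Ai9. The human transgene had no row of its own in the table. The mouse App row read 281.1, 275.0 and 280.9 FPKM (fragments scaled to transcript length and library total) in control libraries 1, 2 and 3, and 325.2, 332.0 and 332.9 FPKM in the TgAPPsweOCN;Ai9 libraries, a log2 fold change of 0.45 ± 0.051 (SE, n = 3 per genotype, edgeR adjusted p = 7.87e-05).

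The OB-lineage label was set against marker genes. Bglap, which encodes osteocalcin itself, lay at 0.00 to 1.25 FPKM and Sp7, an OB transcription factor, at 0.58 to 1.52 FPKM in the 6 libraries. The 15 markers of macrophages and other myeloid cells summed to 19530 to 20290 FPKM in control and 16500 to 20200 FPKM in TgAPPsweOCN;Ai9 libraries, with 7 higher and 5 lower in TgAPPsweOCN;Ai9 mice. Lyz2 alone, a myeloid lysozyme, reached 9263 FPKM. The 15 stromal and OB-lineage markers summed to 1047 to 1158 FPKM and 609.8 to 879.6 FPKM, most of it Spp1, which macrophages also make, with 4 higher and 3 lower among 14 tested. The label thus did not match the most abundant markers, and the cells are called Td+ cells here. By the test given below, 46.7% of the tested myeloid markers were higher and 33.3% lower, and 28.6% and 21.4% of the stromal ones. Among all tested genes, 32.5% were higher and 31.5% lower. Fat-cell markers were scarce. Of 10 such markers 8 had a row, and Plin1, Cidec, Cfd and Retn stayed under 1 FPKM in every library. Their sum ran from 18.81 to 23.49 FPKM in control and from 16.88 to 18.22 FPKM in TgAPPsweOCN;Ai9. Lipe made up most of it, and 0 rose and 1, Plin4, fell among 4 tested, a call that was lost in 7 of the alternatives. In bulk RNA, fewer cells of a type and less RNA per cell cannot be told apart. The part of the cell makeup in the results below was not tested.

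Among the 10 genes, 3 were higher in TgAPPsweOCN;Ai9 Td+ cells (Cd36, Acsl1 and Scd2), 5 were lower (Pparg, Ppard, Fabp4, Fabp5 and Cpt1a), and Plin2 and Fasn did not pass the test. Genes were compared with edgeR's quasi-likelihood test on the estimated counts, and a gene was taken as changed when its p, adjusted by Benjamini-Hochberg over 12701 tested genes, was 0.05 or less. All 10 genes passed the filter on low counts. By the same rule 64% of all tested genes changed, 32.5% upwards and 31.5% downwards, so the count of changed genes in the group has to be read against a wide background. When a log2 fold change of at least 1 was also asked for, Cd36 and Scd2 stayed among the up-regulated genes and Pparg and Fabp4 among the down-regulated ones, beside 8.9% and 9.2% of all tested genes. The median log2 fold change was -0.475 over the 10 genes and -0.019 over all tested genes. In FPKM, the libraries of the 2 genotypes overlapped for none of the 10 genes, 3 lying above and 7 below control, beside 72.3% of all tested genes without overlap, 24% above and 48.3% below. With 3 libraries against 3, an exact two-sided permutation test cannot give a p under 0.1, and each of the 10 genes gave 0.1.

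**Figure D1:**
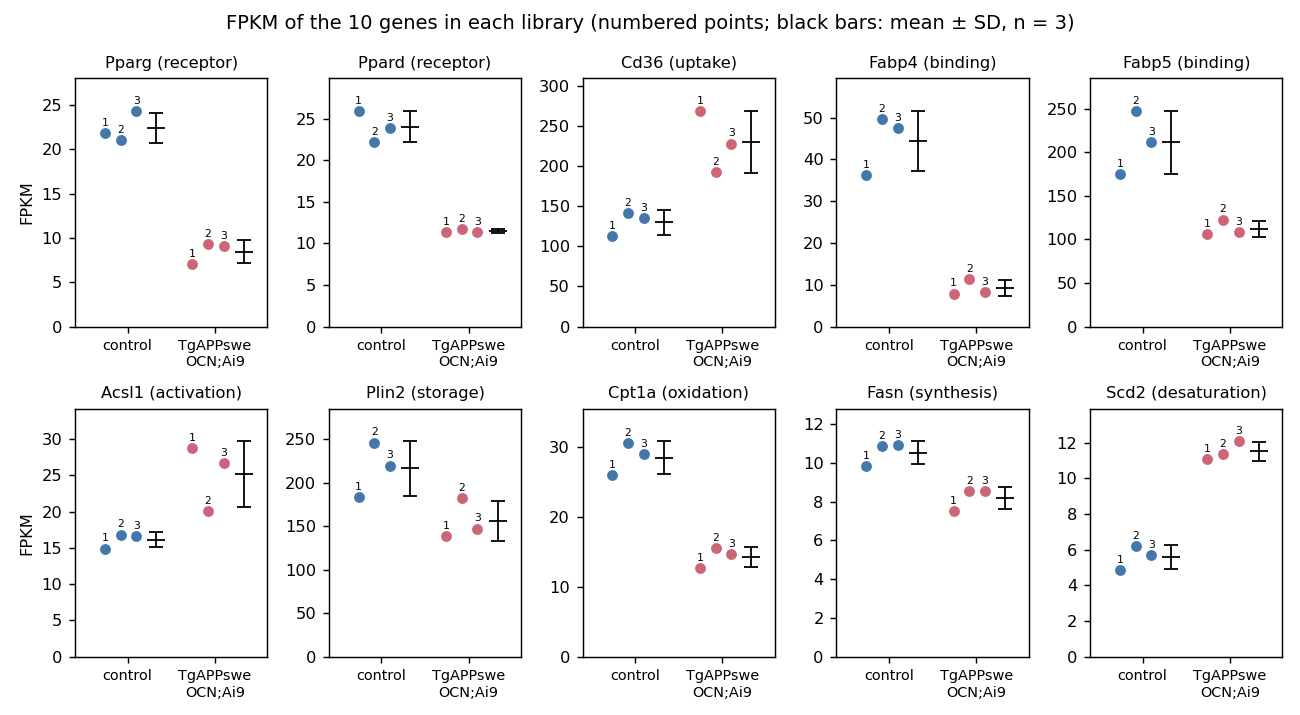
FPKM (y axis, from 0) of the 10 genes in the 3 control libraries (blue) and the 3 TgAPPsweOCN;Ai9 libraries (red), numbered by library, with black bars for mean ± SD. Cd36, Acsl1 and Scd2 have all 3 red points above the blue ones, and the other 7 genes have them below.

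FPKM and the fitted fold changes differ in scale, and both are given. FPKM was scaled by the authors to each library's total, whereas the fitted log2 fold change used TMM factors, which were 1.073 to 1.081 in control and 0.910 to 0.944 in TgAPPsweOCN;Ai9 libraries. Without these factors the median of all tested genes lay at -0.234 on the log2 scale instead of -0.019. The share of changed genes that were higher fell from 50.7% to 32.5% of calls when library size alone was used. A fitted fold change is therefore about 0.2 log2 units above the log2 ratio of mean FPKM, and by the adjusted p only Plin2 and Fasn among the 10 genes had calls that depended on the choice. Acsl1, Cpt1a, Scd2 and Ppard each overlap an annotated noncoding gene that has no row in the table, and since the strand setting of the counting is not given, reads of such pairs cannot be told apart.

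Promoter sequence was read for the members because their receptors fell while some of their known PPAR target genes rose. RefSeq promoter windows of 300 bases, running from 250 bases before to 50 bases after a transcription start on GRCm38.p6, were on hand for 7 of the 10 genes (10 windows, 3 of them of Pparg and 2 of Acsl1). A PPAR response element is a direct repeat of AGGTCA spaced by 1 base (DR1). The letters AGGTCANAGGTCA were found on either strand in 0 of the 10 windows and in 0.0396% of all 32851 windows. Its half-site AGGTCA, whose letters also lie within the DR1 and within the spaced repeat of the LXR element, was found in 5 of the 10 windows, of 4 genes, and in 16.3% of all windows. It lay 228 bases before the windowed start in Cd36, which rose, and 94 bases before that in Cpt1a, which fell. In Plin2, which did not pass the test, it lay 218 bases before the start. The windows of Cd36 and Cpt1a belong to starts inside the RefSeq spans of these genes. No window was on hand at the upstream ends of these 2 spans. The remaining windows with it were those of the first and second Pparg starts, 28 and 9 bases before the start. The LXR letters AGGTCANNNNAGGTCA were in 0 of the 10 windows and in 0.0152% of all. A C/EBP motif, TTGCNNAA, stood in 1 window, that of the third Pparg start, 215 and 16 bases before the start, and in 10.8% of all windows. The SREBP letters TCACNCCAC stood in 1 window, that of the second Acsl1 start, 76 bases before the start, and in 1.24% of all. The DR1 and LXR letters stand in so few of all windows that finding none in 10 was all but certain. Their absence therefore says nothing about PPAR or LXR elements of these genes. These matches are descriptions of letters in a short window, and other stretches were not searched. The 250 bases before 3 starts with a PPAR half-site and before the Pparg start with the C/EBP motif are shown, 5′ to 3′ on the gene's strand. The 3 half-site genes were picked because they differ in their calls (1 higher, 1 lower and 1 that did not pass). The Pparg start was picked because Cebpa also fell. No link between a motif and a change in level was tested. Capitals mark the half-site in the first 3 sequences, where TGACCT is AGGTCA on the other strand, and the C/EBP motif in the last. The windows are chr5:17835897-17836146 on the minus strand for Cd36, chr19:3323051-3323300 on the plus strand for Cpt1a, chr4:86670060-86670309 on the minus strand for Plin2, and chr6:115421816-115422065 on the plus strand for Pparg.
Cd36: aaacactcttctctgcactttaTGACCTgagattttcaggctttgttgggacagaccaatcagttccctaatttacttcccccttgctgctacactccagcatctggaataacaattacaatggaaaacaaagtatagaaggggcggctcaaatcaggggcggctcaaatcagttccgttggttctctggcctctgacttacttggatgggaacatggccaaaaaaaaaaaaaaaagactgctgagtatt
Cpt1a: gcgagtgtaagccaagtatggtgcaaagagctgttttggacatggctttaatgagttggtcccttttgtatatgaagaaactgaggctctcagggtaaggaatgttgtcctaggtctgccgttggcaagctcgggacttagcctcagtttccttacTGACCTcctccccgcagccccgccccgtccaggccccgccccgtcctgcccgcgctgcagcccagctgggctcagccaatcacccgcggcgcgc
Plin2: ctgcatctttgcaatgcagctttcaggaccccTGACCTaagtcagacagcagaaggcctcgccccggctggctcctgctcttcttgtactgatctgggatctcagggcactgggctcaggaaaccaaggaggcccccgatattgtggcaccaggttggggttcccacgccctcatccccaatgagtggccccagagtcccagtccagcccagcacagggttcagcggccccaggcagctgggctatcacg
Pparg: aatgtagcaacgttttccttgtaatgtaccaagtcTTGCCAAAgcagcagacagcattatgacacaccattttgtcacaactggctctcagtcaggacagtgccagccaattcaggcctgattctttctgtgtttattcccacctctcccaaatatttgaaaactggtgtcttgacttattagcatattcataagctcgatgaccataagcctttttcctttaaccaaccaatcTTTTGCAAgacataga

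Both PPAR receptors of the group fell in TgAPPsweOCN;Ai9 Td+ cells. Pparg (chr6:115360879-115490404; spans here are RefSeq's for protein-coding genes on GRCm38.p6) read 21.82, 21.03 and 24.33 FPKM in control libraries 1, 2 and 3, and 7.02, 9.32 and 9.04 FPKM in TgAPPsweOCN;Ai9 libraries 1, 2 and 3. Every TgAPPsweOCN;Ai9 library lay below every control library. The means were 22.4 ± 1.72 FPKM and 8.46 ± 1.26 FPKM (SD, n = 3), and the fitted difference was 2.23-fold, a log2 fold change of -1.16 ± 0.108 (SE, edgeR adjusted p = 2.63e-05). Ppard (chr17:28232754-28301469) read 25.95, 22.22 and 23.90 FPKM in control and 11.38, 11.73 and 11.33 FPKM in TgAPPsweOCN;Ai9. Its TgAPPsweOCN;Ai9 libraries were the most alike of any gene in the group, with a coefficient of variation of 1.9%. The fitted fall was 1.80-fold, a log2 fold change of -0.85 ± 0.070 (adjusted p = 1.25e-05). The ratio of Pparg to Ppard was 0.935 ± 0.089 in control and 0.736 ± 0.104 in TgAPPsweOCN;Ai9 (SD, n = 3 per genotype, exact permutation p = 0.1, the smallest possible). Ppara, the third PPAR, was at most 0.04 FPKM in any library and was not tested.

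The partners of these receptors moved with them in part. Rxra and Rxrb, the RXR genes measured at a level that could be tested, fell, with log2 fold changes of -0.86 ± 0.066 and -0.53 ± 0.060 (SE; edgeR adjusted p = 8.27e-06 and 8.02e-05). Cebpa, a transcription factor that acts with PPARγ in fat-cell and myeloid differentiation, read 133.2, 150.8 and 137.4 FPKM in control and 28.04, 33.27 and 29.91 FPKM in TgAPPsweOCN;Ai9. Its control libraries were all at least 4 times the TgAPPsweOCN;Ai9 ones. The log2 fold change of Cebpa was -1.99 ± 0.075 (adjusted p = 1.96e-07). Nr1h3, which encodes the oxysterol receptor LXRα, went the other way, from 19.91 ± 0.74 to 66.66 ± 1.97 FPKM (SD, n = 3), a log2 fold change of 1.97 ± 0.063 (adjusted p = 9.99e-08). Ppargc1a, the PGC-1α coactivator, was close to 0 FPKM in all libraries. Ppargc1b lay at 0.90 ± 0.12 and 0.71 ± 0.14 FPKM and did not pass the test (log2 fold change -0.20, adjusted p = 0.306).

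Fatty acid uptake was represented by Cd36 (chr5:17781690-17888959), a scavenger receptor that carries long-chain fatty acids and oxidized lipoproteins into cells. Cd36 read 112.6, 141.6 and 135.6 FPKM in control libraries 1, 2 and 3, and 269.3, 192.8 and 228.4 FPKM in the TgAPPsweOCN;Ai9 libraries. The lowest TgAPPsweOCN;Ai9 library, number 2, was still above the highest control. The fitted rise was 2.07-fold, a log2 fold change of 1.05 ± 0.138 (SE, edgeR adjusted p = 0.000202). It lay close to the fold threshold of 1: it was 0.90 without TgAPPsweOCN;Ai9 library 1, 0.95 without control library 1 and 0.83 with scaling by library size only, while the adjusted p stayed under 0.05 in all of these. Msr1, another scavenger receptor of macrophages, rose from 148.7 ± 13.4 to 223.4 ± 24.8 FPKM (SD, n = 3), a log2 fold change of 0.73 (adjusted p = 0.000582). Lpl, which releases fatty acids from lipoproteins and was the most abundant of these uptake genes at 476.7 ± 50.9 and 394.8 ± 67.4 FPKM, did not pass the test (log2 fold change -0.06, adjusted p = 0.685). Lrp1, a large endocytic receptor, fell from 175.7 ± 13.3 to 103.2 ± 19.98 FPKM (log2 fold change -0.56, adjusted p = 0.00415).

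The genes for the 2 intracellular fatty acid binding proteins of the group fell, Fabp4 more than Fabp5. Fabp4 (chr3:10204342-10208616), the binding protein of fat cells and macrophages, read 36.15, 49.57 and 47.48 FPKM in control and 7.87, 11.35 and 8.27 FPKM in TgAPPsweOCN;Ai9 libraries. The lowest control library was more than 3 times the highest TgAPPsweOCN;Ai9 library. The fitted fall of 4.17-fold was the steepest of the 10 genes, a log2 fold change of -2.06 ± 0.163 (SE, n = 3 per genotype, edgeR adjusted p = 1.03e-05). Fabp5 (chr3:10012585-10016610), the epidermal-type binding protein, lies 187731 bases from Fabp4 on the same chromosome. It read 174.7, 247.2 and 211.6 FPKM in control and 106.0, 122.8 and 108.1 FPKM in TgAPPsweOCN;Ai9 libraries. All control libraries were above all TgAPPsweOCN;Ai9 libraries, and the fitted fall was 1.62-fold (log2 fold change -0.70 ± 0.117, adjusted p = 0.000861). Because Fabp4 fell further, the ratio of Fabp5 to Fabp4 went from 4.76 ± 0.27 to 12.5 ± 1.43 (SD, n = 3 per genotype, exact permutation p = 0.1). Cd36 and Fabp4 moved in opposite directions, and their ratio went from 2.94 ± 0.15 to 26.3 ± 8.69, with the same p. The counts of Fabp4 and Fabp5 were whole numbers in every library.

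Other binding proteins rose or fell. Fabp3, the heart-type protein, rose from 3.04 ± 0.39 to 6.36 ± 1.61 FPKM (SD, n = 3), a log2 fold change of 1.26 (edgeR adjusted p = 0.0015), and its counts were fractional in all 6 libraries, which happens where reads fit more than 1 gene. Fabp7, the brain-type protein, rose from 5.85 ± 0.95 to 8.40 ± 1.52 FPKM (log2 fold change 0.73, adjusted p = 0.00744). Among acyl-CoA binding proteins, Dbi fell from 134.2 ± 5.46 to 76.3 ± 4.70 FPKM (log2 fold change -0.60, adjusted p = 6.13e-05) and the Golgi protein gene Acbd3 rose from 17.1 ± 1.07 to 31.7 ± 0.92 FPKM (log2 fold change 1.11, adjusted p = 1.45e-06).

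Fatty acids enter metabolism as acyl-CoA, and the synthetase gene of the group rose. Acsl1 (chr8:46471037-46536051), a long-chain acyl-CoA synthetase, read 14.91, 16.85 and 16.64 FPKM in control and 28.78, 20.11 and 26.74 FPKM in TgAPPsweOCN;Ai9 libraries. TgAPPsweOCN;Ai9 library 2 was the closest to control and still above all control libraries. The log2 fold change was 0.83 ± 0.136 (SE, n = 3 per genotype, edgeR adjusted p = 0.000759), a 1.78-fold rise. Its relative Acsl5 was more abundant and rose further, from 49.4 ± 1.27 to 123.2 ± 6.89 FPKM (SD, n = 3), a log2 fold change of 1.57 ± 0.064 (adjusted p = 2.96e-07). Acsl4, which prefers arachidonic acid, rose from 19.5 ± 2.19 to 29.5 ± 1.28 FPKM (log2 fold change 0.81, adjusted p = 4.70e-05). Acsl3 did not pass the test (log2 fold change -0.13, adjusted p = 0.221; -0.35 and adjusted p = 0.0088 by library size only, and -0.23 and 0.0288 without control library 1), and Acsl6 was at most a trace. The ratio of Acsl5 to Acsl1 was 3.07 ± 0.14 in control and 4.97 ± 0.69 in TgAPPsweOCN;Ai9 (exact permutation p = 0.1). Of the thioesterases, which split acyl-CoA again, the cytosolic Acot7 had the largest rise of the pathway genes named here, from 19.8 ± 1.13 to 112.0 ± 12 FPKM (log2 fold change 2.73, adjusted p = 1.82e-07). The mitochondrial thioesterase genes differed in direction. Acot9 rose from 16.6 ± 1.43 to 28.4 ± 1.18 FPKM (log2 fold change 0.99, adjusted p = 1.27e-05), whereas Acot2 fell from 5.45 ± 0.15 to 1.96 ± 0.24 FPKM (log2 fold change -1.26, adjusted p = 2.96e-05; counts fractional in all 6 libraries) and Acot13 from 52.0 ± 3.17 to 27.5 ± 0.61 FPKM (log2 fold change -0.70, adjusted p = 4.96e-05).

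Lipid droplets were represented by Plin2 (chr4:86626910-86670217), which encodes the droplet coat protein of most cells other than fat cells. Plin2 read 183.4, 246.2 and 219.9 FPKM in control and 138.3, 182.8 and 147.4 FPKM in TgAPPsweOCN;Ai9 libraries. The highest TgAPPsweOCN;Ai9 library and the lowest control library were within 1 FPKM of each other. The log2 fold change of Plin2 was -0.25 ± 0.123 (SE, edgeR adjusted p = 0.101), and over the alternatives the adjusted p ran from 0.0115 to 0.311. The symbol Plin2 stood in 2 rows of the table. The second row belongs to Gm12551, a transcribed pseudogene that overlaps the end of Plin2, held 0 to 4 counts and was not tested, and 2 of the 6 Plin2 counts were fractional. Plin3, a droplet and endosome coat gene, lay at 33.2 ± 0.99 and 32.5 ± 0.90 FPKM and its small fitted rise (log2 fold change 0.18, adjusted p = 0.0139) turned to -0.03 with scaling by library size only. Plin1 and Plin5, the coats of fat cells and oxidative tissue, were under 1 FPKM in every library. Enzymes that build triglyceride split. Agpat3 rose from 32.4 ± 1.02 to 83.5 ± 2.08 FPKM (SD, n = 3; log2 fold change 1.61, adjusted p = 1.85e-07), and the phosphatidate phosphatase genes Lpin1 and Lpin2 fell (log2 fold changes -0.90 and -0.59, adjusted p = 1.19e-05 and 3.46e-05). Dgat2 and the droplet-budding gene Fitm2 rose by log2 fold changes of 1.46 and 1.01, from means of 0.69 and 2.21 FPKM in control (adjusted p = 0.0104 and 0.000227). Plin4, at 1.49 ± 0.82 FPKM in control and 0.56 ± 0.30 FPKM in TgAPPsweOCN;Ai9, had an adjusted p of 0.0467, which rose above 0.05 in 7 of the alternatives.

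Cpt1a (chr19:3322326-3385735) encodes the carnitine palmitoyltransferase of the outer mitochondrial membrane, the gate of fatty acid oxidation. It read 25.97, 30.63 and 29.02 FPKM in control and 12.71, 15.51 and 14.71 FPKM in TgAPPsweOCN;Ai9 libraries. All TgAPPsweOCN;Ai9 libraries lay below all control libraries. The fitted fall was 1.72-fold, a log2 fold change of -0.78 ± 0.085 (SE, n = 3 per genotype, edgeR adjusted p = 6.41e-05). Cpt2, its partner on the inner membrane, did not pass the test (log2 fold change -0.03, adjusted p = 0.703; -0.25 and adjusted p = 0.0188 by library size only), and the ratio of Cpt1a to Cpt2 went from 2.59 ± 0.18 to 1.54 ± 0.10 (SD, exact permutation p = 0.1). Cpt1c rose at a low level, from 2.22 ± 0.32 to 3.03 ± 0.12 FPKM (log2 fold change 0.74, adjusted p = 0.00107), and Cpt1b, near 1 FPKM, had an adjusted p of 0.0486 that did not hold in most alternatives. The acylcarnitine carrier gene Slc25a20 rose (log2 fold change 0.60, adjusted p = 0.000245), and the thiolase gene Acaa2 and the malonyl-CoA decarboxylase gene Mlycd fell (log2 fold change -0.82 each, adjusted p = 0.000106 and 5.12e-05). In peroxisomes, the acyl-CoA oxidase gene Acox3 fell from 43.5 ± 0.75 to 11.7 ± 0.58 FPKM (log2 fold change -1.67, adjusted p = 1.11e-07), the fatty acid transporter gene Abcd2 from 4.10 ± 0.065 to 0.75 ± 0.031 FPKM (log2 fold change -2.24, adjusted p = 2.67e-07) and Hsd17b4, the bifunctional enzyme of the same route, from 101.5 ± 2.27 to 48.1 ± 1.27 FPKM (log2 fold change -0.86, adjusted p = 2.33e-06). The peroxisomal thioesterase gene Acot8 had a log2 fold change of 0.42 (adjusted p = 0.00418), which did not pass with scaling by library size only (0.20), and its counts were fractional in all 6 libraries.

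The synthesis genes of the group parted. Fasn (chr11:120805958-120825166), which encodes fatty acid synthase, read 9.83, 10.84 and 10.90 FPKM in control and 7.52, 8.52 and 8.52 FPKM in TgAPPsweOCN;Ai9 libraries. In FPKM the genotypes did not overlap, but the log2 fold change was only -0.15 ± 0.066 (SE, edgeR adjusted p = 0.080), and the adjusted p ran from 0.00229 to 0.224 over the alternatives. Scd2 (chr19:44293676-44306864), a stearoyl-CoA desaturase that makes monounsaturated fatty acids, read 4.86, 6.22 and 5.71 FPKM in control and 11.09, 11.36 and 12.09 FPKM in TgAPPsweOCN;Ai9 libraries. Every TgAPPsweOCN;Ai9 library lay well above control, and the fitted rise was 2.39-fold, a log2 fold change of 1.26 ± 0.090 (adjusted p = 5.81e-06). Counts of Scd2 were fractional in 3 of 6 libraries, and it has close relatives in the same gene cluster. Among these, Scd1 lay at 2.41 ± 0.35 and 2.45 ± 0.17 FPKM (SD, n = 3) and did not pass the test (log2 fold change 0.24, adjusted p = 0.112; 0.34 and adjusted p = 0.0335 without control library 1). The ratio of Scd2 to Scd1 thus went from 2.39 ± 0.63 to 4.71 ± 0.28 (exact permutation p = 0.1). Upstream of Fasn, Acaca, the acetyl-CoA carboxylase gene, and Acly, the ATP citrate lyase gene, had log2 fold changes of 0.38 and 0.34 (adjusted p = 0.00217 and 0.00226), and neither passed with scaling by library size only, at 0.17 and 0.13. Me1, a malic enzyme gene that supplies NADPH, rose from 7.09 ± 0.45 to 18.4 ± 3.15 FPKM (log2 fold change 1.61, adjusted p = 1.3e-05). Elovl6, which elongates palmitate, and Mid1ip1, a regulator of acetyl-CoA carboxylase, fell (log2 fold changes -1.22 and -1.30, adjusted p = 6.21e-05 and 1.19e-06). Of the dehydratase genes of fatty acid elongation, Hacd3 rose from 16.9 ± 0.79 to 40.5 ± 5.02 FPKM (log2 fold change 1.44, adjusted p = 5.96e-06) and Hacd4 fell from 56.5 ± 2.94 to 20.4 ± 3.93 FPKM (log2 fold change -1.25, adjusted p = 1.92e-05), with fractional counts in all 6 libraries for both. Srebf1 and Srebf2, the lipogenic and sterol transcription factor genes, did not pass the test, at log2 fold changes of 0.07 and 0.03.

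**Figure D2:**
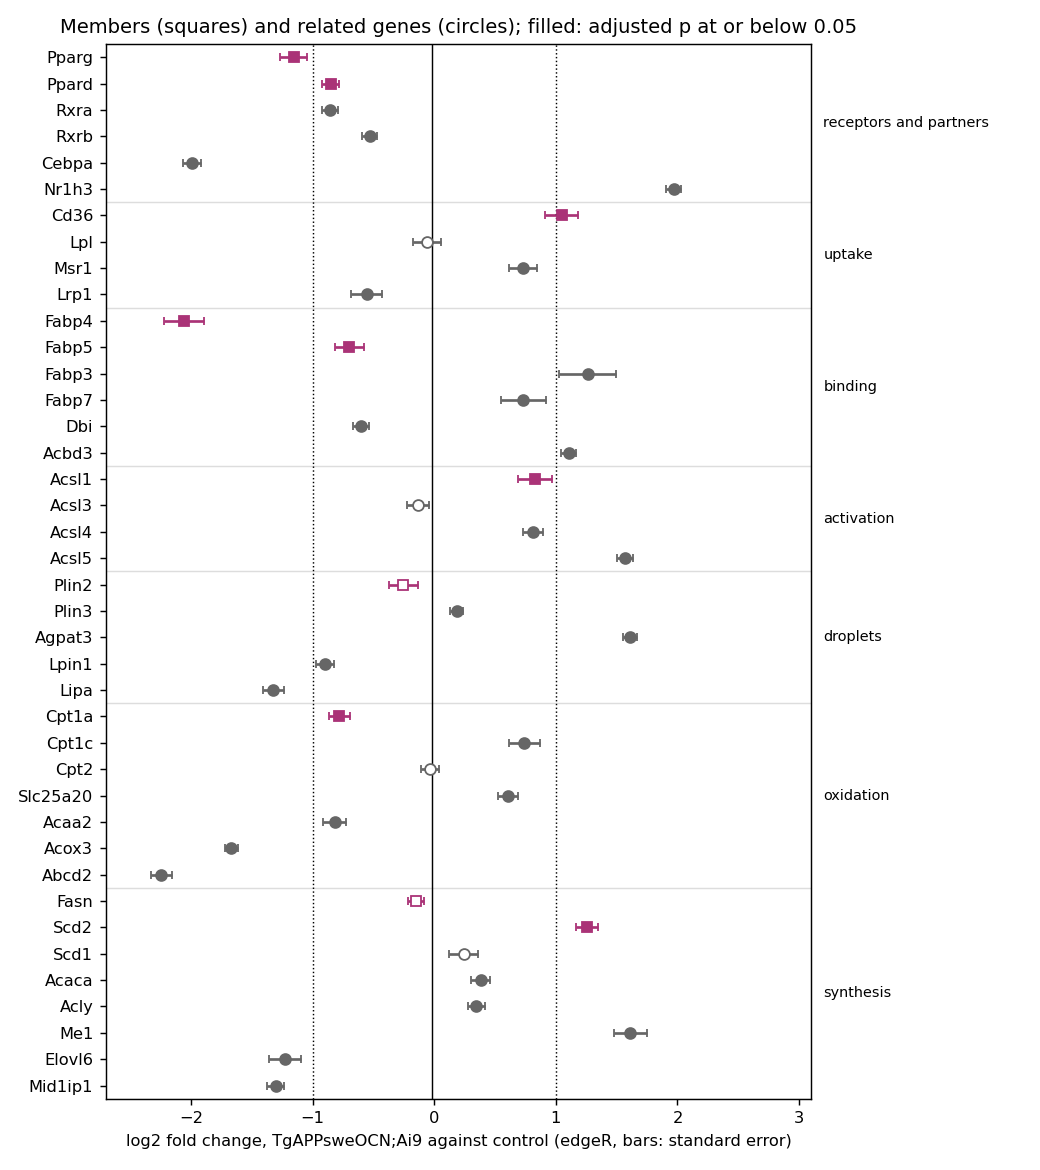
Fitted log2 fold change (x axis, TgAPPsweOCN;Ai9 against control) with its standard error for the 10 genes (squares) and 30 related genes (circles), grouped by role. Filled symbols passed an adjusted p of 0.05, dotted lines mark log2 fold changes of -1 and 1, and the solid line is the median of all tested genes, -0.019. Fabp4 at -2.06, Pparg at -1.16, Cd36 at 1.05 and Scd2 at 1.26 lie beyond the dotted lines.

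The order of the 10 genes by level changed between the genotypes. In control Td+ cells Plin2 (216.5 ± 31.5 FPKM) and Fabp5 (211.2 ± 36.3 FPKM) came first and overlapped between libraries, followed by Cd36 at 129.9 ± 15.3 FPKM and Fabp4 at 44.4 ± 7.22 FPKM. Cpt1a, Ppard and Pparg lay next at 28.5, 24.0 and 22.4 FPKM, of which Ppard and Pparg overlapped, and Acsl1, Fasn and Scd2 closed the order at 16.1, 10.5 and 5.60 FPKM without overlap. In TgAPPsweOCN;Ai9 Td+ cells Cd36 was first at 230.2 ± 38.3 FPKM, above Plin2 at 156.1 ± 23.5 FPKM and Fabp5 at 112.3 ± 9.14 FPKM, with no overlap. Acsl1 rose to the place after these at 25.2 ± 4.53 FPKM, and Cpt1a followed at 14.3 ± 1.44 FPKM. Scd2 and Ppard were level at 11.5 FPKM each, ahead of Fabp4, Pparg and Fasn at 9.16, 8.46 and 8.19 FPKM, and each of these 5 genes overlapped with the next. Among all tested genes, mean FPKM placed Fabp4 at percentile 84.8 in control and 51.3 in TgAPPsweOCN;Ai9, Pparg at 71.1 and 49.4, and Scd2 at 36.0 and 56.9. The 10 genes together took 0.123% to 0.153% of the counts of a library in control and 0.133% to 0.147% in TgAPPsweOCN;Ai9.

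Libraries of the same genotype did not vary alike for all genes. Plin2, Fabp5, Fabp4 and Cpt1a were lowest in library 1 and highest in library 2 within each genotype, although the library numbers were not shown to pair the libraries. Cd36 and Acsl1 had a different order in TgAPPsweOCN;Ai9 cells, where both were highest in library 1 and lowest in library 2. In the same 3 libraries 6 of the 15 myeloid markers ran in the order of Cd36, among them Adgre1 at 2100, 1462 and 1766 FPKM, 4 ran in the opposite order, among them Mrc1 at 27.51, 41.17 and 34.53 FPKM, and 5 in neither. Of the 15 stromal and OB-lineage markers 1, Postn, ran in the order of Cd36, 8 ran in the opposite order, among them Col1a1 (26.94, 41.50 and 36.26 FPKM) and Dcn (1.27, 10.27 and 6.38 FPKM), and 6 in neither. With 3 libraries this is a description only, and the part of these cell types in the levels of Cd36 and Acsl1 was not tested. Between the genotypes, Adgre1 rose (log2 fold change 1.89) while the myeloid markers Mrc1 and Csf1r fell (log2 fold changes -2.38 and -1.49; edgeR adjusted p = 4.90e-06, 1.53e-06 and 1.21e-06), so the myeloid list did not move in a single direction. Other cell types were checked in the same way. Of the 4 tested platelet and megakaryocyte markers 0 rose, and Pf4 and Treml1 fell and made up nearly all of a sum of 556 to 660.3 FPKM in control and 119.9 to 269.0 FPKM in TgAPPsweOCN;Ai9, while the defining markers Itga2b, Gp9, Gp1bb and Gp6 were under 1 FPKM throughout. Endothelial markers summed to 4.54 to 7.44 FPKM and 5.56 to 6.63 FPKM (1 higher, 2 lower of 5 tested, with Tek, Esam and Cldn5 under 1 FPKM), and erythroid markers to at most 0.58 FPKM, with 0 of 7 tested.

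The wider pathways were described with 11 written lists of 194 genes, of which 154 were tested, 43 rose and 47 fell, with a median log2 fold change of -0.06 beside -0.019 over all tested genes. These shares, 27.9% and 30.5%, were near those of all tested genes (32.5% and 31.5%). Without the 10 members the counts were 40 and 42 of 144, or 27.8% and 29.2%. With scaling by library size only, 29 rose and 79 fell. Regulators came first. Among PPAR receptors, partners and coregulators, 2 of 15 tested genes rose (Nr1h3 and the Mediator subunit gene Med1) and 6 fell, including Pparg, Ppard, Rxra, Rxrb and Cebpa, and scaling by library size only gave 1 and 7. The rise of Med1 was lost without control library 2 or TgAPPsweOCN;Ai9 library 3, which left 1. Among 15 tested regulators of the SREBP and ChREBP route, 5 rose and 3 fell (4 and 7 by library size only). Without TgAPPsweOCN;Ai9 library 2 or 3 there was 1 fall in place of 3, as Nr1h2 and Mbtps1 no longer passed. Mlx, the ChREBP partner gene, and Insig2, an SREBP retention gene, rose (log2 fold changes 0.68 and 0.48, edgeR adjusted p = 2.41e-05 and 0.00143). Mlxipl, which encodes ChREBP itself, was under 1 FPKM in every library. The AMPK subunit gene Prkag1 fell (log2 fold change -0.33, adjusted p = 0.00337).

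Of 24 tested genes known as PPAR targets, 6 rose and 7 fell (5 and 12 by library size only). The rises included Gk, the glycerol kinase gene, from 6.06 ± 0.39 to 17.9 ± 0.66 FPKM (log2 fold change 1.78, edgeR adjusted p = 1.85e-07), and the falls Angptl4, which encodes an inhibitor of lipoprotein lipase, from 4.79 ± 0.34 to 1.66 ± 0.54 FPKM (log2 fold change -1.31, adjusted p = 0.000907), and Pdk4, which turns cells from glucose to fatty acids, from 2.98 ± 0.56 to 1.56 ± 0.44 FPKM (log2 fold change -0.71, adjusted p = 0.0243; -0.55 and not past the test without control library 1). Of the 28 listed target genes 7, among them Aqp7, Ehhadh and Gpd1, were under 1 FPKM in every library.

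In the order of the pathway, uptake genes gave 2 rises and 1 fall among 9 tested (2 and 4 by library size only). The falls of uptake genes were 2 with the replicate block and without control library 1 or TgAPPsweOCN;Ai9 library 2. Binding proteins gave 3 and 3 among 9 (3 and 5 by library size only), and acyl-CoA synthetases and thioesterases 5 and 3 among 11 (5 and 5). Storage in lipid droplets gave 6 rises and 4 falls among 18 (5 and 8 by library size only). Lipolysis gave 1 rise, Abhd5, the coactivator of triglyceride lipase (log2 fold change 0.59, edgeR adjusted p = 0.00051), and 4 falls among 8, the same counts as by library size only, but 2 rises without any 1 of the control libraries or TgAPPsweOCN;Ai9 library 2. The falls included Lipa, the lysosomal acid lipase gene, which read 402.2, 507.8 and 481.3 FPKM in control and 157.9, 161.7 and 158.9 FPKM in TgAPPsweOCN;Ai9 (log2 fold change -1.32, adjusted p = 3.40e-06), Mgll, the monoacylglycerol lipase gene (log2 fold change -2.15, adjusted p = 0.000121), and the lysosomal phospholipase gene Pla2g15 (log2 fold change -0.71, adjusted p = 5.39e-05). Mitochondrial oxidation gave 10 rises and 8 falls among 25, none past the fold threshold, and 3 and 12 by library size only, so its direction depended on the scaling. Peroxisomal oxidation gave 1 rise and 6 falls among 20 (0 and 14, and 2 rises without control library 2), and synthesis, desaturation and elongation 8 and 7 among 21 (5 and 11). With a library left out, this last list gave 7 to 9 rises and 6 to 9 falls, and storage 5 to 6 and 3 to 5. Acyl-CoA synthetases and thioesterases gave 5 to 6 and 3 to 4, and mitochondrial oxidation 8 to 9 and 7 to 8. Falls ran from 3 to 4 for binding proteins and from 5 to 7 for peroxisomal oxidation.

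**Figure D3:**
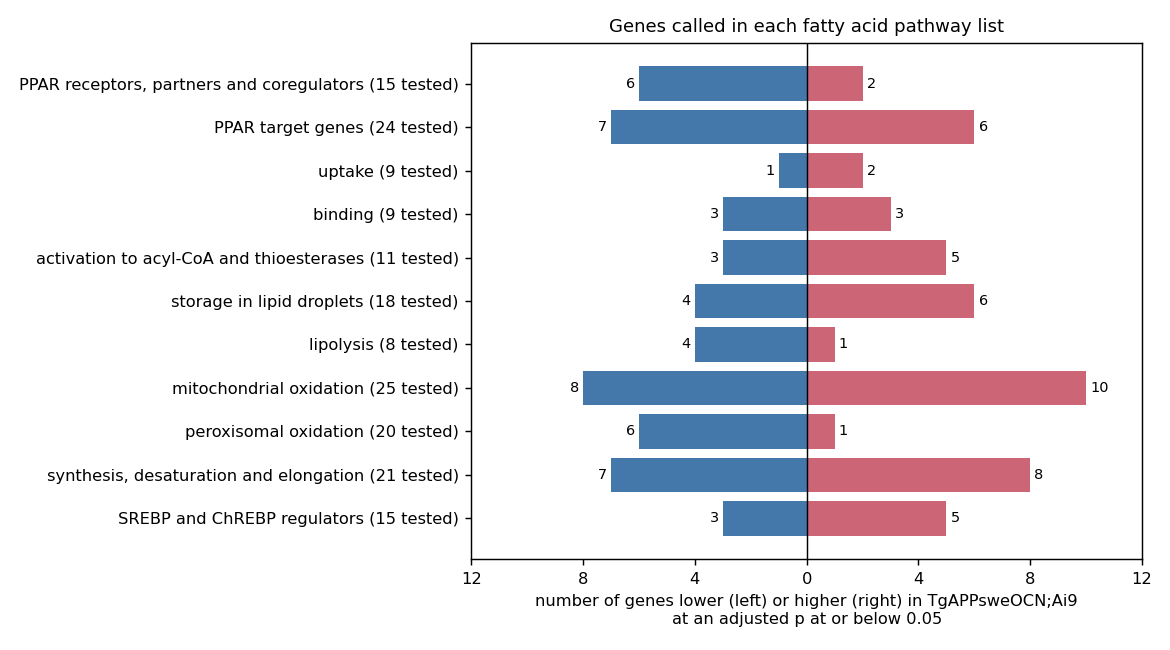
Number of genes (x axis) of each of the 11 written lists that were lower (left, blue) or higher (right, red) in TgAPPsweOCN;Ai9 Td+ cells at an adjusted p at or below 0.05, with the number tested beside each list. Peroxisomal oxidation has 6 lower and 1 higher (30% and 5% of those tested), PPAR receptors and partners 6 lower and 2 higher (40% and 13.3%) and mitochondrial oxidation 8 lower and 10 higher (32% and 40%), beside 31.5% lower and 32.5% higher among all tested genes.

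The direction and call of 8 of the 10 genes held in all 15 alternatives, which exchanged the test, the scaling, the filter on low values or the unit, or left out a library. Plin2 and Fasn kept a negative log2 fold change in all of them but passed the test only in some.

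**Figure D4:**
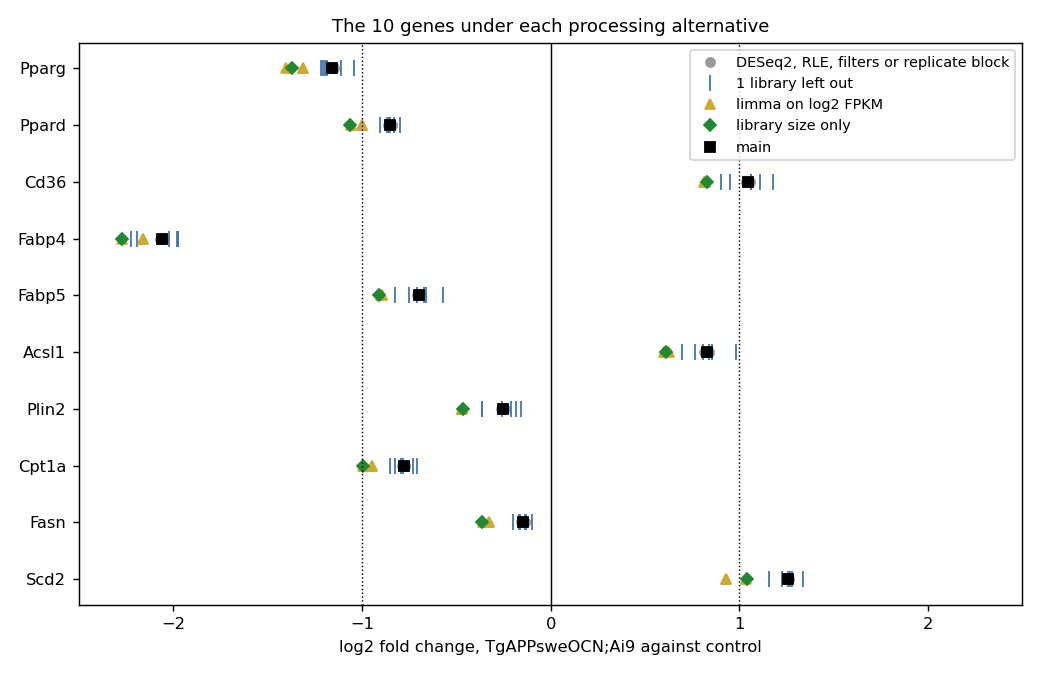
Log2 fold change (x axis, TgAPPsweOCN;Ai9 against control) of each of the 10 genes in the reported fit (black squares) and under each alternative, with dotted lines at -1 and 1. Library size scaling (green) and FPKM (yellow) move each gene to the left by 0.1 to 0.3, which takes Cd36, and in part Scd2, below 1 and Ppard below -1, and no gene crosses 0.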

How the data were processed

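RNA was sequenced on a DNBSEQ platform in 6 libraries of sorted tdTomato+ cells, 3 per genotype. Reads of rRNA, adaptors and low quality were removed by the authors. Their processing notes name HISAT2 2.0.4, Bowtie2 2.2.5, RSEM 1.2.12, DESeq2 1.4.5 and the mm10 build. The authors deposited RSEM estimated counts (expected counts), of which 13.3% to 14.4% per library were fractional, and FPKM values, scaled by the authors to gene length and library total. Whether counting used strand is not given in the sources used here. A further deposited table repeats the FPKM with the authors' log ratios and p-values, and was not used.

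The 10 genes and all gene lists were chosen with earlier results of these data known. Groups came from the genotype labels. Rows were matched to RefSeq by Entrez identifier (17348 of 17469). The test was planned on raw counts, but the files hold estimated counts, which were rounded to whole numbers. The comparison used edgeR 4.0.16 in R 4.3.3 (TMM, filterByExpr, then glmQLFit and glmQLFTest on genotype only, two-sided, Benjamini-Hochberg over 12701 genes). The biological coefficient of variation was 9.85%, and 3 counts, the smallest level taken as detectable, were 0.136 to 0.155 CPM, which covers counting error only. Fold changes are given with their SE and FPKM as mean ± SD. The named genes are the 10 genes, their family members and partners, in each list the 3 largest rises and falls among changed genes with a mean FPKM of at least 1 in a genotype, App, and 6 lists of cell markers. Alternatives were DESeq2 1.42.0, RLE size factors, library size only, no filter, at least 10 counts in every library, a replicate block, limma 3.58.1 on log2(FPKM + 1) and log2(FPKM + 0.1) of genes with an FPKM of at least 1 in 3 libraries, log2(FPKM + 1) unfiltered, and each library left out in turn. The test was checked on simulated data in which few genes changed, evenly in both directions. That check does not cover a comparison in which most genes change, as here. Promoter windows are RefSeq's on GRCm38.p6. Python 3.11.15, pandas 2.3.3 and matplotlib 3.10.9 were used.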

Additional observations from a re-analysis of the deposited data

How the results depend on the processing

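Of the 10 genes, 8 kept their call under every alternative. Plin2 (log2 fold change -0.25) also passed the test with library size only (-0.467), the replicate block (-0.252) and limma on log2(FPKM + 1), log2(FPKM + 0.1) and unfiltered log2(FPKM + 1) (-0.469, -0.471 and -0.469). With a library left out it ran from -0.366 to -0.155, and it passed without control library 1 and without TgAPPsweOCN;Ai9 library 2 (-0.364). Fasn (-0.15) passed under the same 5 settings, at -0.362, -0.148, -0.328, -0.359 and -0.328. With a library left out it ran from -0.20 to -0.101, and it passed without control library 1. The number of the 10 genes that were higher and past the fold threshold, 2 in the report, was 1 with library size only, 0 with limma on log2(FPKM + 1), 1 on log2(FPKM + 0.1) and 0 unfiltered, and 1 to 2 with a library left out, 1 without control library 1 or TgAPPsweOCN;Ai9 library 1. Among pathway genes 79 were lower with library size only and 77, 76 and 72 in the 3 limma settings, against 47. Past the fold threshold, 23 were lower with library size only, against 15, and 7 were higher with limma on log2(FPKM + 1), filtered or not, against 14. Over all genes the 2 filtered limma settings called 2632 and 2629 higher, against 4122, and 586 and 667 past the fold threshold, against 1130, where unfiltered limma called 589. The causes were not tested.

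Cpt2 and Acsl3 passed the test with library size only and in the 3 limma settings, with log2 fold changes of -0.25 to -0.225 and -0.349 to -0.308. Signs turned for 5 other genes. Plin3 was -0.031 with library size only and -0.03, -0.031 and -0.03 in limma. Srebf1 was -0.143 and then -0.138, -0.144 and -0.138, and Srebf2 -0.185 and then -0.15, -0.154 and -0.15, with -0.052 without control library 1, -0.031 without TgAPPsweOCN;Ai9 library 1 and a range of -0.052 to 0.104 with a library left out. Cpt2 was 0.023 without control library 2 (range -0.087 to 0.023), and Lpl 0.015 without control library 2 and 0.046 without TgAPPsweOCN;Ai9 library 1 (range -0.173 to 0.046). In all, 828 of the values of the other named genes kept their direction and call, 41 lost the call, 10 gained it and 17 turned.

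The replicate numbers were not shown to pair the libraries. Same-numbered libraries correlated at 0.013, 0.007 and 0.141 in their deviations from the genotype means, and not every pair was over 0.1. The replicate block gave 4040 higher and 3905 lower genes and changed the call of Plin2 and Fasn among the 10 genes.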
